A study of Homo sapiens with 8 samples.

Results

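The SLC25 genes encode the mitochondrial carrier family, and their transcripts were compared between control KYSE150 cells and KYSE150 cells in which BOLA3-L, an isoform of BOLA3, was knocked down. Members were taken by symbol, as the rows of the count table named SLC25A followed by a number. Of 15852 rows, 47 matched. Of these, 36 reached at least 1 CPM (counts per 1000000 counts of the library) in 4 or more of the 8 libraries and are described as the family here. Most were grouped by the substrate they are known to carry. The exceptions are SLC25A46 of the outer membrane, 3 members related to the uncoupling proteins and 3 with no substrate assigned. The member nearest above that level was SLC25A53, with 0.571 to 1.28 CPM, and the nearest below it was SLC25A21, with 0.284 to 0.638 CPM. The other members below it were SLC25A2, SLC25A4, SLC25A6, SLC25A18, SLC25A34, SLC25A41, SLC25A45, SLC25A47, SLC25A48 and SLC25A52, each with 0 to 14 counts per library.

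KYSE150 is an established esophageal cancer cell line. Polyadenylated RNA was sequenced from 4 libraries with the genotype Control and 4 with the genotype ShBOLA3-L, a short hairpin RNA knockdown, and the treatment of both groups is given as none. The labels do not say how the hairpin was delivered, whether the knockdown cells were a pool or a clone, or whether each library came from its own culture. The p-values therefore measure the spread between these libraries, which may be technical. The comparison asks which transcripts differ when BOLA3-L is lowered.

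Most mitochondrial carriers sit in the inner mitochondrial membrane, which is otherwise closed to charged metabolites, and each exchanges or imports a narrow set of substrates. Through them ADP and phosphate reach ATP synthase, amino acids and citrate pass between the matrix and the cytosol, acylcarnitines reach beta-oxidation, and glutathione, iron and cofactors enter the matrix. BOLA3 is a mitochondrial protein that takes part in passing iron-sulfur clusters to their target proteins, among them lipoic acid synthase. Matrix iron and glutathione, both delivered by members of the family, are needed for making these clusters.

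Depth was 31178036 to 35147860 counts in each library, so that 3 counts are worth 0.0854 to 0.0962 CPM. BOLA3 itself had 19.1 to 21.8 CPM in controls and 6.05 to 7.29 CPM in knockdown libraries. Its mean fell from 20.8 ± 1.26 to 6.58 ± 0.531 CPM (SD, n = 4 each), or 31.7% of control (log2 change -1.66, SE 0.0821, edgeR adjusted p = 6.9e-11; exact two-sided permutation p = 0.0286, the smallest that 70 assignments allow). Isoforms are not separated in the table. The squamous markers KRT5, KRT14, TP63 and KRT6A were present in every library, with a summed level of 3520 to 3550 CPM in controls and 2020 to 2280 CPM in knockdown libraries, and all 4 fell. The fibroblast markers summed to 9.63 to 14.6 CPM in controls and 3.61 to 6.56 CPM in knockdown libraries, mostly from COL1A1. The leukocyte markers summed to 77.6 to 84.5 and 73.9 to 79.4 CPM, nearly all from CD68, with PTPRC at 0.0539 CPM or less on average. The endothelial markers summed to 0.819 to 1.64 CPM in controls and 1.71 to 2.29 CPM in knockdown libraries, and CDH5 among them rose by 0.79 on the log2 scale (edgeR adjusted p = 0.012). What part these marker differences have in the changes of carriers was not tested. In bulk RNA, fewer cells that express a gene and less of its RNA per cell cannot be told apart. On the second principal component, BOLA3-L knockdown replicate 1 had a score of 20.1, while knockdown replicates 2 to 4 had -10.1 to -4.81. The counts of members that changed are therefore given with and without it.

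Between carriers, levels were compared as FPKM (counts scaled to gene length and library total), which the authors deposited beside the counts. The ADP/ATP carrier SLC25A5 was the highest member, with a mean of 549 FPKM in controls and 555 FPKM in knockdown libraries. It held 46.8% ± 0.824 of the summed FPKM of all 47 matching rows in controls and 46.5% ± 0.82 in knockdown libraries (SD, n = 4 each). The glutathione carrier SLC25A39 followed with 116 FPKM in controls, and the phosphate carrier SLC25A3 came next with 96.1 FPKM. Together these 3 genes held 64.9% ± 0.471 of the same sum in controls and 63.4% ± 0.315 in knockdown libraries. That sum holds the ADP/ATP carrier SLC25A6 only as its row of 0 to 6 counts, and the level of this gene is uncertain. The rank of SLC25A5 and these shares therefore hold for the matching rows only. In knockdown libraries SLC25A39 (102 FPKM) and SLC25A3 (99.9 FPKM) were closer together. The summed level of the 47 rows was 1173 ± 22.2 FPKM in controls and 1194 ± 13.2 FPKM in knockdown libraries, and the libraries of the groups overlapped (1147 to 1195 and 1184 to 1212 FPKM). At the low end, the acylcarnitine carrier SLC25A20 had 1.71 FPKM in controls and SLC25A53 had 0.137 FPKM.

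**Figure D1:**
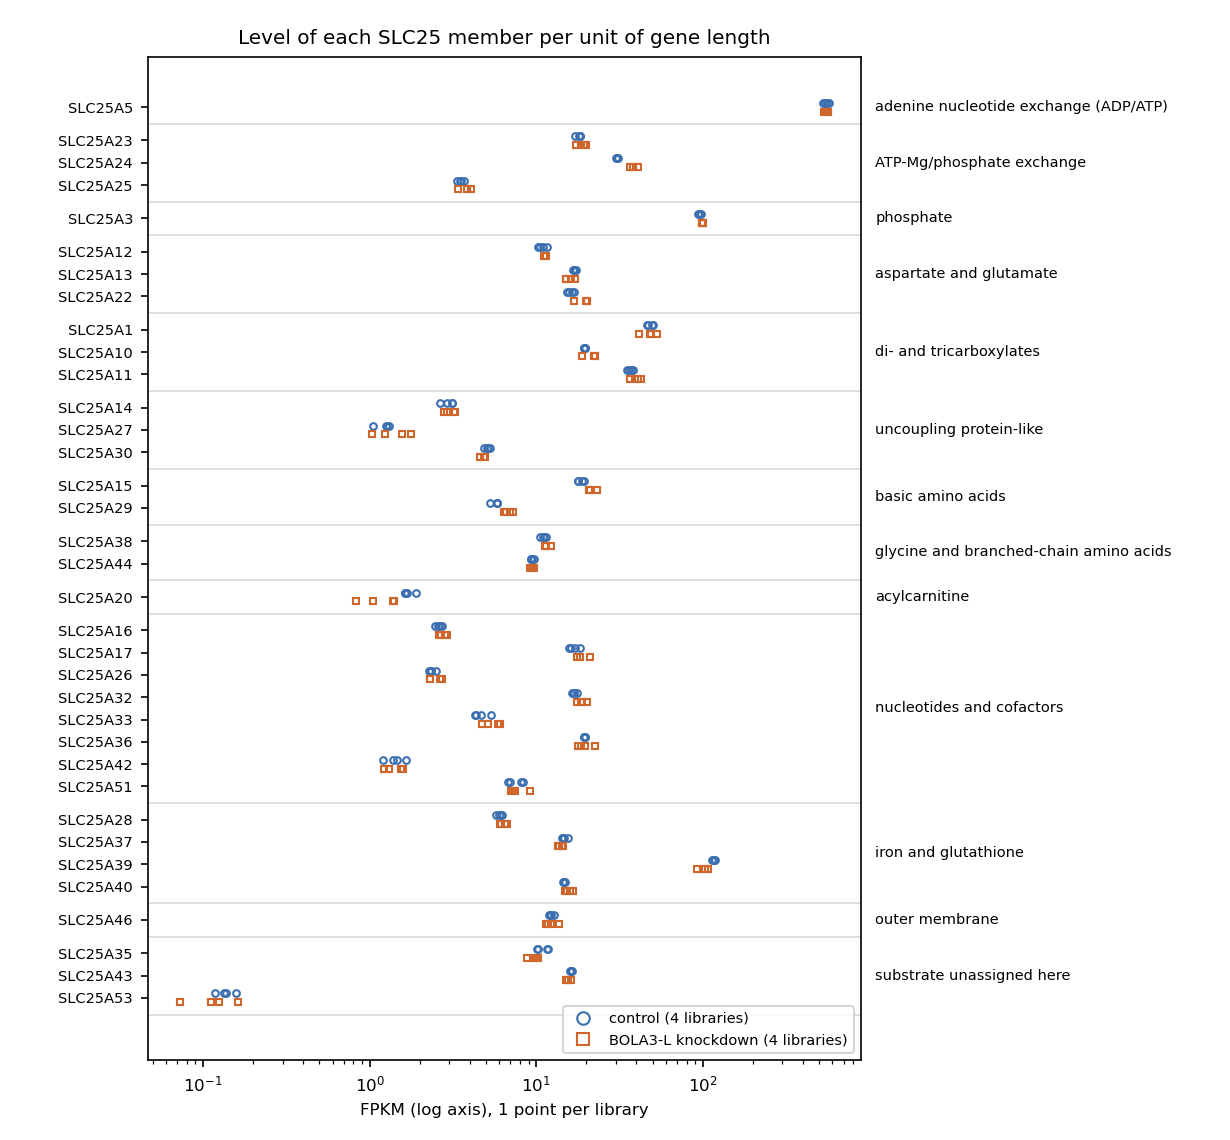
Level of 35 of the 36 kept SLC25 members in every library, as FPKM on a log axis, with members grouped by substrate; circles are the 4 control libraries and squares the 4 BOLA3-L knockdown libraries. SLC25A5 lies far to the right of the others at about 549 FPKM, and SLC25A20 and SLC25A24 show groups that do not overlap.

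Of the 36 members, 4 rose and 3 fell, or 19.4% in either direction at an edgeR adjusted p under 0.05. Over all 11841 tested genes 30.7% were called, 15.0% as rises and 15.6% as falls, so the share among carriers was below that of the whole table in this fit. The rises were SLC25A24, SLC25A22, SLC25A15 and SLC25A29, and the falls were SLC25A20, SLC25A39 and SLC25A35. No member changed by 2-fold or more, while 1.32% of all tested genes were called and also changed by 2-fold or more. The median log2 change of the members was 0.04, beside 0.0014 over all tested genes, and the median size of the change was 0.09, beside 0.11. The knockdown libraries lay wholly above the controls for 3 members (14.6% of all tested genes) and wholly below them for 6 (15.6% of all tested genes), beside 30.2% of all tested genes in either direction. Without BOLA3-L knockdown replicate 1, 8 members rose and 4 fell (33.3% called), beside 42.7% of all genes tested that way (21.2% rises and 21.5% falls). The added rises included SLC25A10, SLC25A11 and SLC25A33, and the added fall was SLC25A13.

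**Figure D2:**
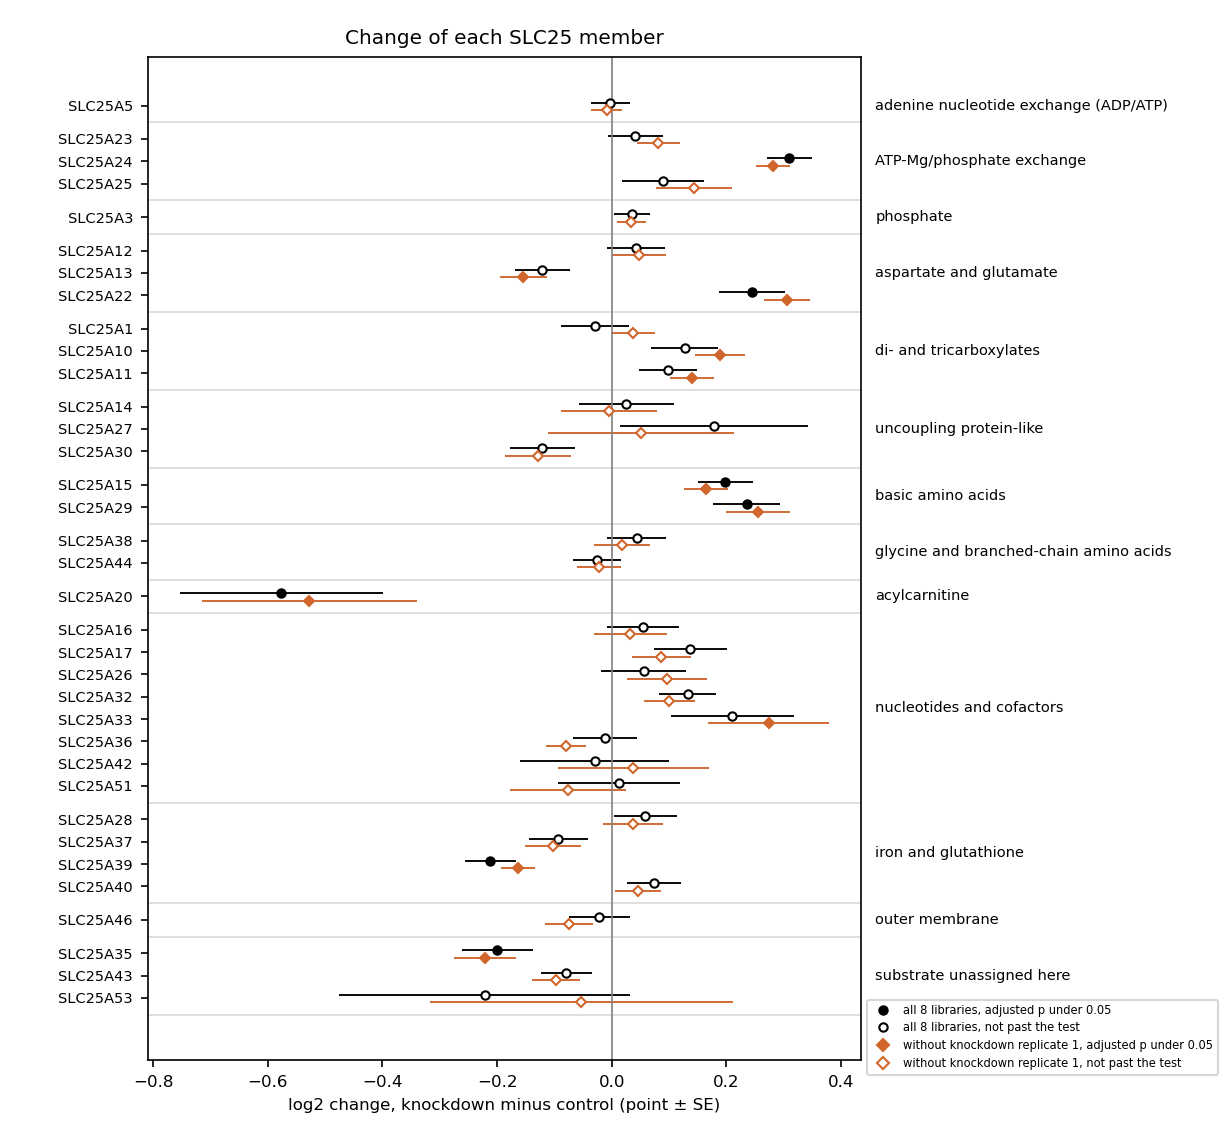
Log2 change of 35 of the 36 SLC25 members, knockdown minus control, with its standard error, grouped by substrate; black circles are the fit to all 8 libraries and orange diamonds the fit without BOLA3-L knockdown replicate 1, and filled symbols have an adjusted p under 0.05. With all 8 libraries 7 symbols are filled, from SLC25A20 at -0.58 to SLC25A24 at 0.31.

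Among carriers of adenine nucleotides and phosphate, the calcium-regulated ATP-Mg/phosphate carrier SLC25A24 rose, while the abundant ADP/ATP and phosphate carriers were not called with all 8 libraries. SLC25A24 (identifier 29957, chromosome 1 from 108134043 to 108200343) had 144, 141, 139 and 142 CPM in control replicates 1 to 4 and 186, 174, 166 and 175 CPM in knockdown replicates 1 to 4. All knockdown libraries lay above all controls, and BOLA3-L knockdown replicate 1 was the highest. The mean went from 141 ± 2.34 to 175 ± 8.17 CPM (SD, n = 4 each), a gain of 23.9%, with a log2 change of 0.31 (SE 0.0396, edgeR adjusted p = 1.1e-05). On the opposite strand, other annotated genes overlap 13.7% of its exon length. Its relatives SLC25A23 and SLC25A25, which carry the same substrates, had log2 changes of 0.04 (75.8 to 77.9 CPM) and 0.09 (17.5 to 18.6 CPM) and were not called. Thus 1 of the 3 kept members of this group passed the test.

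SLC25A5, which exchanges matrix ATP for cytosolic ADP, had 710.3, 690.5, 738 and 749 CPM in controls and 732, 738, 713 and 699 CPM in knockdown libraries. Its groups overlapped throughout, with means of 722 ± 26.7 and 721 ± 17.9 CPM (SD, n = 4 each). Of its exon length, 15.1% overlaps SLC25A5-AS1 on the opposite strand. SLC25A3, which brings phosphate into the matrix, had 591 ± 13.5 CPM in controls and 606 ± 6.64 CPM in knockdown libraries, with a log2 change of 0.04 and overlapping libraries. SLC25A3 was called, as a rise, only with GC-corrected offsets and without knockdown replicate 1 (edgeR adjusted p = 0.0378). The ADP/ATP carrier of heart and muscle, SLC25A4, had 5 counts in control replicate 1 and 0 in the other libraries. The row named SLC25A6, a further ADP/ATP carrier, held 0 to 6 counts. A separate row, SLC25A6-2, has the same gene identifier but lies outside the naming rule, and it held 221 to 602 counts. Its level was 6.81 to 9.31 CPM in controls, 19.1 CPM in BOLA3-L knockdown replicate 1 and 7.40 to 10.9 CPM in the other knockdown libraries (edgeR adjusted p = 0.296). The gene lies in a region shared by the X and Y chromosomes, and all of its transcript sequence recurs in the annotated Y copy, so the level of SLC25A6 is uncertain.

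Of the 3 kept carriers of aspartate and glutamate, 1 was called by edgeR, a rise, beside 15.0% rises over all tested genes. It was SLC25A22, and DESeq2 called 2, SLC25A22 and SLC25A13. SLC25A22, which imports glutamate together with a proton, had 59.5, 56.7, 55.6 and 60.7 CPM in controls and 60.1, 72.5, 70.7 and 72.1 CPM in knockdown libraries. Knockdown replicates 2 to 4 lay above every control, and knockdown replicate 1 lay within the control range. The mean went from 58.1 ± 2.37 to 68.9 ± 5.88 CPM (n = 4 each, SD; log2 change 0.24, SE 0.0573, edgeR adjusted p = 0.003219). The gene (identifier 79751) lies on chromosome 11 from 790475 to 798281. Of its exon length, 10.8% overlaps the opposite-strand gene PANO1, which had a mean of at most 0.532 CPM. The aspartate/glutamate carriers of the malate-aspartate shuttle were not called by edgeR with all 8 libraries and no GC correction. SLC25A12 had 44.1 CPM in controls and 45.4 CPM in knockdown libraries. SLC25A13 had 59.96 and 55.1 CPM, with a log2 change of -0.12 (edgeR adjusted p = 0.0652), and was called as a fall without BOLA3-L knockdown replicate 1 (log2 change -0.15, edgeR adjusted p = 0.002094). DESeq2 also called it (adjusted p = 0.0499), as did edgeR with GC-corrected offsets (adjusted p = 0.0133).

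Both kept carriers of basic amino acids rose, beside 15.0% of all tested genes. SLC25A15, the ornithine carrier that links the matrix and cytosolic steps of the urea cycle, had 72.7, 68.8, 68.1 and 74.2 CPM in controls and 87.4, 79.5, 78.8 and 80.1 CPM in knockdown libraries. All knockdown libraries lay above all controls, with knockdown replicate 1 the highest. The mean went from 71.0 ± 2.93 to 81.4 ± 3.98 CPM (n = 4 each, SD; log2 change 0.20, SE 0.0472, edgeR adjusted p = 0.00364). SLC25A29, a carrier of arginine, lysine and other basic amino acids, had 25.7, 28.2, 28.1 and 28.2 CPM in controls and 31.2, 34.7, 33.1 and 30.7 CPM in knockdown libraries. Here too the groups did not overlap, and control replicate 1 was the lowest library. The mean went from 27.5 ± 1.25 to 32.4 ± 1.87 CPM (n = 4 each, SD; log2 change 0.24, SE 0.0591, edgeR adjusted p = 0.005373). SLC25A15 (identifier 10166) lies on chromosome 13 from 40789611 to 40812460, and SLC25A29 (identifier 123096) on chromosome 14 from 100278567 to 100306444. Of the exon length of SLC25A29, 9.3% overlaps other annotated genes, AL157871.1 on the opposite strand and AL157871.6 on the same strand. SLC25A38, which brings glycine in for heme synthesis, and SLC25A44, a carrier of branched-chain amino acids, had log2 changes of 0.04 and -0.03 and were not called.

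The carnitine/acylcarnitine carrier SLC25A20, which brings long-chain acyl groups to beta-oxidation, had the largest change in the family. It was counted at a low level, with 50 to 105 counts per library. Controls had 3.39, 2.94, 3.00 and 2.92 CPM, and knockdown libraries had 1.84, 2.47, 1.45 and 2.44 CPM. All knockdown libraries lay below all controls, and knockdown replicates 1 and 3 were the lowest. The mean fell from 3.06 ± 0.223 to 2.05 ± 0.493 CPM (SD, n = 4 each), a change of -32.9%, with a log2 change of -0.58 (SE 0.177, edgeR adjusted p = 0.01857). It was not called without control replicate 1 (edgeR adjusted p = 0.0603) or without BOLA3-L knockdown replicate 3 (log2 change -0.44, edgeR adjusted p = 0.0656). On the log2(FPKM + 1) scale, which shrinks changes of low genes, limma gave a change of -0.34. The gene (identifier 788) lies on chromosome 3 from 48856926 to 48898882.

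Among the carriers of iron and glutathione, SLC25A39 fell and the other 3 were not called by edgeR, DESeq2 or limma with all 8 libraries. SLC25A39, which imports glutathione into the matrix, had 186, 187, 187 and 180.1 CPM in controls and 144, 162, 162 and 170.4 CPM in knockdown libraries. All knockdown libraries lay below all controls, and knockdown replicate 1 was the lowest. The mean fell from 185 ± 3.34 to 160 ± 11.1 CPM (n = 4 each, SD; log2 change -0.21, SE 0.0450, edgeR adjusted p = 0.001547). The gene (identifier 51629) lies on chromosome 17 from 44319628 to 44324823. Its close relative SLC25A40, also a glutathione carrier, had 60.1 ± 0.654 CPM in controls and 63.2 ± 3.12 CPM in knockdown libraries (n = 4 each, SD; log2 change 0.07). SLC25A40 was called, as a rise, only with GC-corrected offsets and without knockdown replicate 1 (edgeR adjusted p = 0.02785). The iron importers SLC25A37 (mitoferrin-1) and SLC25A28 (mitoferrin-2) had log2 changes of -0.09 and 0.06. For SLC25A37 the knockdown libraries (37.1 to 39.3 CPM) and controls (39.3 to 43.1 CPM) met without overlapping, but the difference did not pass the test (edgeR adjusted p = 0.182).

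SLC25A35, whose substrate was left unassigned, fell by 0.20 on the log2 scale (SE 0.0620, edgeR adjusted p = 0.02005). Controls had 40.4, 46.2, 46.6 and 40.9 CPM, and knockdown libraries had 39.8, 34.6, 39.3 and 38.1 CPM. The groups did not overlap, but control replicates 1 and 4 lay close to knockdown replicates 1 and 3. The mean was 43.5 ± 3.32 CPM in controls and 37.9 ± 2.36 CPM in knockdown libraries (SD, n = 4 each). The gene was not called without control replicate 2, control replicate 3 or knockdown replicate 2 (edgeR adjusted p = 0.0866, 0.0870 and 0.0856). Of its exon length, 33.2% overlaps RANGRF on the opposite strand, and use of strand in the counting is not stated. RANGRF went from 34.2 to 31.8 CPM (log2 change -0.10, edgeR adjusted p = 0.175). SLC25A35 (identifier 399512) lies on chromosome 17 from 8287763 to 8295400. SLC25A43 and SLC25A53, also without an assigned substrate, had log2 changes of -0.08 and -0.22 and were not called with all 8 libraries. SLC25A43 was called, as a fall, only with GC-corrected offsets and without knockdown replicate 1 (edgeR adjusted p = 0.03794).

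**Figure D3:**
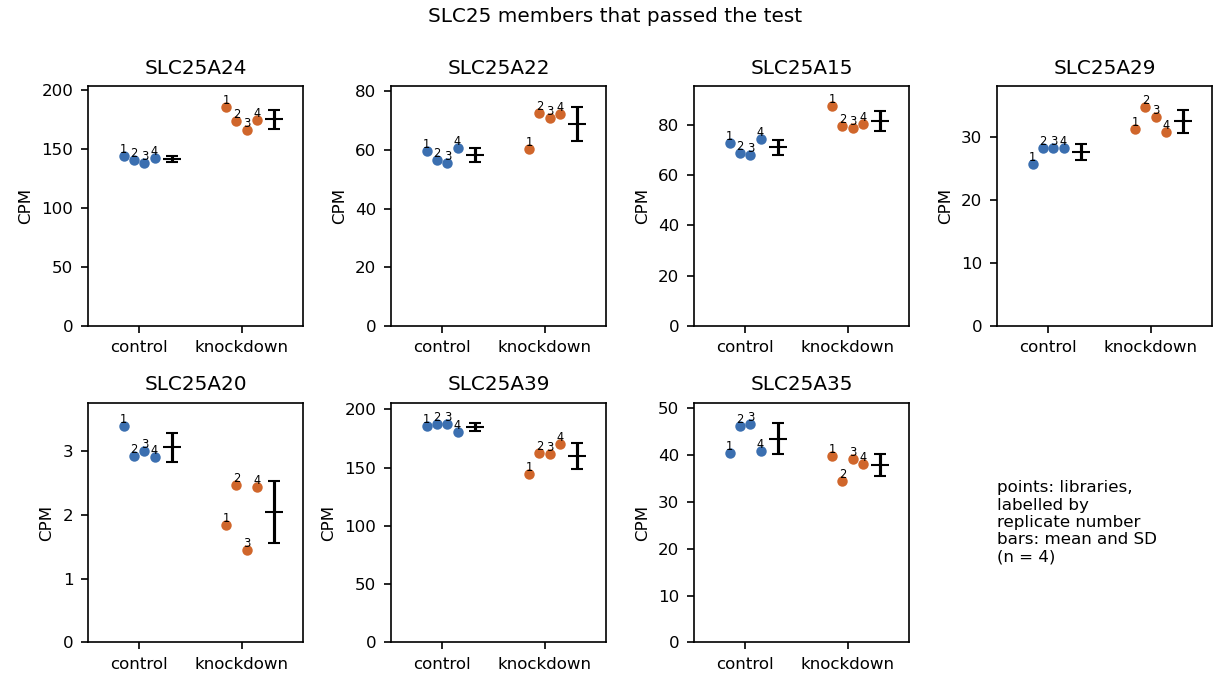
CPM of the 7 SLC25 members with an adjusted p under 0.05, in each control and BOLA3-L knockdown library; points are libraries labelled by replicate number, bars are the mean and SD (n = 4), and each vertical axis starts at 0. SLC25A22 overlaps between groups through knockdown replicate 1 at 60.1 CPM, and SLC25A20 reaches at most 3.39 CPM.

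None of the 3 kept carriers of di- and tricarboxylates was called by edgeR with all 8 libraries and no GC correction. Of these, 1 (SLC25A10) had an unadjusted p under 0.05, and 0 were called by DESeq2 or by limma. The share of all tested genes at that unadjusted p was not computed. SLC25A1 exports the citrate used for lipid synthesis. It had 88.2 ± 3.38 CPM in controls and 86.4 ± 8.84 CPM in knockdown libraries (SD, n = 4 each). Knockdown replicate 1 was its lowest library at 74.5 CPM, below every control, and the log2 change of -0.03 became 0.04 without it. SLC25A10, the dicarboxylate carrier, had 42.9 to 43.6 CPM in controls, 41.2 CPM in knockdown replicate 1 and 49.2 to 49.7 CPM in knockdown replicates 2 to 4. Its log2 change was 0.13 with all libraries (edgeR adjusted p = 0.107) and 0.19 without knockdown replicate 1 (edgeR adjusted p = 0.0004357). Of the 19 alternatives, only that fit called SLC25A10. It was not called with GC-corrected offsets, either with all 8 libraries or without knockdown replicate 1. A same-strand gene model shares 57.3% of its transcript sequence, so its count is uncertain. SLC25A11, the oxoglutarate/malate carrier of the malate-aspartate shuttle, had 72.9 CPM in controls and 78.0 CPM in knockdown libraries. Its log2 change was 0.10 (edgeR adjusted p = 0.154), and 0.14 without knockdown replicate 1 (edgeR adjusted p = 0.002771). With GC-corrected offsets SLC25A11 was called as a rise by edgeR, both with all 8 libraries and without knockdown replicate 1. It overlaps 9.14% of its exon length with RNF167 on the opposite strand, which rose by 0.27 on the log2 scale.

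None of the 9 kept carriers of nucleotides and cofactors was called by edgeR with all 8 libraries, TMM, filterByExpr and no GC correction. Of these, 7 had a log2 change above 0, beside 5951 of all 11841 tested genes. At an unadjusted p under 0.05 there were 2 (SLC25A17 and SLC25A32), and DESeq2 and limma each called 1, SLC25A32. No share over all tested genes was computed for the unadjusted p or for limma. With GC-corrected offsets on all 8 libraries, edgeR called both SLC25A17 and SLC25A32 as rises. SLC25A32 was also called with upper quartile scaling and with the filter of 1 CPM in 4 libraries. It was called in 9 of the 19 alternatives. SLC25A32, which carries folate, came nearest, with 49.2 ± 1.54 CPM in controls and 53.9 ± 2.88 CPM in knockdown libraries (n = 4 each, SD; log2 change 0.13, edgeR adjusted p = 0.0542). Of its transcript sequence, 96.5% recurs in other gene models, mainly a readthrough transcript, so its count is uncertain. SLC25A33, a pyrimidine nucleotide carrier, had the largest log2 change of the group, 0.21 (7.53 to 8.71 CPM, edgeR adjusted p = 0.150). Without knockdown replicate 1, SLC25A33 was called (edgeR adjusted p = 0.0306). The peroxisomal carrier SLC25A17, a transporter of coenzyme A and other cofactors, had a log2 change of 0.14 (38.7 to 42.6 CPM). The NAD carrier SLC25A51 (0.01), the coenzyme A carrier SLC25A42 (-0.03), the S-adenosylmethionine carrier SLC25A26 (0.06), the pyrimidine nucleotide carrier SLC25A36 (-0.01) and SLC25A16 (0.05) had smaller log2 changes.

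The 3 kept members related to the uncoupling proteins were not called by edgeR, DESeq2 or limma. Of them, 1 (SLC25A30) had an unadjusted edgeR p under 0.05, for which no share over all tested genes was computed. SLC25A30 had 24.6 to 26.6 CPM in controls and 23.0 to 24.5 CPM in knockdown libraries. These groups did not overlap, yet the log2 change of -0.12 did not pass the test (edgeR adjusted p = 0.119). SLC25A14 and SLC25A27, which are known best from neurons, had log2 changes of 0.03 and 0.18 at 12.1 and 3.64 CPM in controls. SLC25A46, which sits in the outer membrane and takes part in the shaping of mitochondria, had a log2 change of -0.02. Across the 29 members that were not called, log2 changes ran from -0.22 to 0.21, with 18 above 0 and 11 below.

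Within the knockdown group, replicate 1 deviated from the other libraries in step with the GC content of the transcripts. The members' transcripts ranged from 34.2% to 65.6% GC. Of the 10 members at 58% GC or above, 8 were lower in knockdown replicate 1 than the mean of the other 3 knockdown libraries, with a median log2 difference of -0.18. Of the 13 members under 45% GC, 11 were higher, with a median of 0.12. Across the 36 members the deviation had a Pearson correlation of -0.424 with GC content in knockdown replicate 1 and -0.047 in control replicate 1. Genes are not independent replicates, and the points share 1 library, so these correlations are a description. Over the 11584 tested genes with a GC value, the deviation was taken from the mean of all 8 libraries, unlike that of the members. Its correlation with GC content was -0.46 in knockdown replicate 1 and 0.125, 0.221 and 0.261 in knockdown replicates 2 to 4. In controls it was -0.0618 to 0.0235. As all 8 libraries share 1 mean, these values are not independent of each other. With GC-corrected offsets, an alternative chosen after seeing the data, 7 members rose and 4 fell, beside 41.5% of all tested genes (20.5% rises and 21.0% falls). With these offsets and without knockdown replicate 1, 11 members rose and 5 fell, beside 42.0% of all genes tested that way (20.8% rises and 21.2% falls). DESeq2 on all 8 libraries called 5 rises and 4 falls among the members, beside 31.9% of all tested genes (15.7% rises and 16.3% falls). What part GC content has in the changes of single members was not tested beyond these fits.

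**Figure D4:**
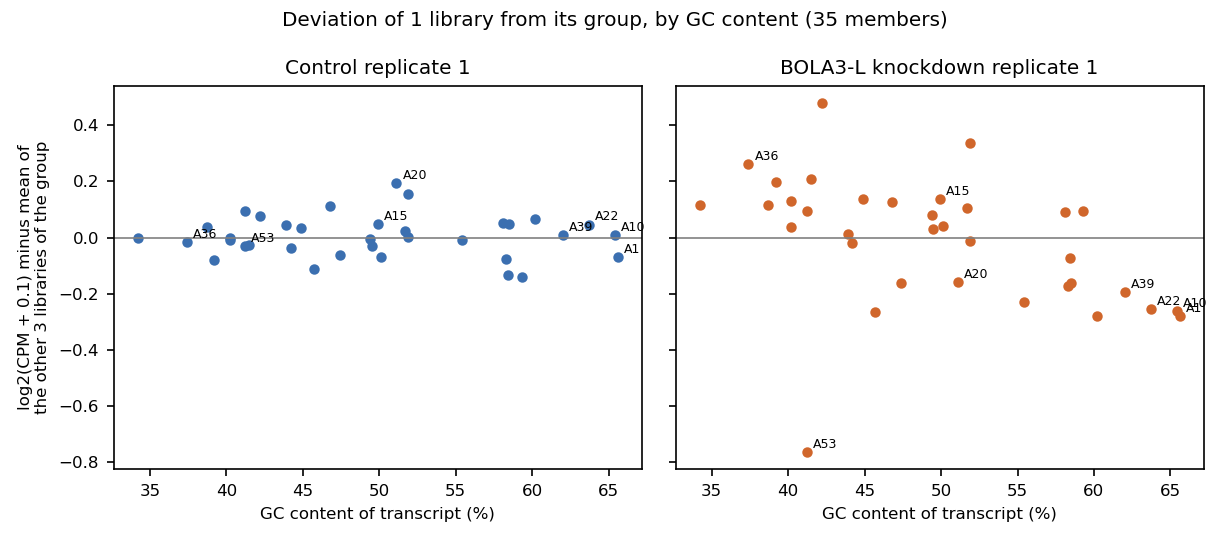
Deviation of control replicate 1 (left) and BOLA3-L knockdown replicate 1 (right) from the mean of the other 3 libraries of the group, as a difference of log2(CPM + 0.1), against the GC content of the transcript for 35 of the 36 SLC25 members. In knockdown replicate 1, members at 58% GC or above lie mostly below 0 (8 of 10) and members under 45% mostly above 0 (11 of 13).

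Windows of 300 bases around the start of the gene (250 before and 50 after it, RefSeq on GRCh38.p14) matched 30 of the 36 members, 6 of the 7 that passed the test among them. SLC25A16, SLC25A30, SLC25A32, SLC25A35 and SLC25A37 were among those with no match. The windows were searched on both strands for 7 motifs. The GC box, GGGCGG, was in 76.7% of the members' windows and in 71.0% of the windows of 9762 tested genes. The ETS core, CCGGAAG, was in 20% and 20.2%, and the palindromic motif of NRF1 in 10% and 12.1%. The E-box, CACGTG, was in 20% of the members' windows and 10.3% of those of tested genes, and the cAMP response element, TGACGTCA, in 10% and 3.36%. The estrogen-related receptor motif, AAGGTCA, was in 0 members' windows and in 2.44% of those of tested genes. The direct repeat bound by PPAR receptors, which can share bases with the preceding motif, was in 0 members' windows and in 0.0307%. Among the members that passed the test, the GC box was in the windows of SLC25A15, SLC25A20, SLC25A22, SLC25A29 and SLC25A39, and the ETS core in those of SLC25A20 and SLC25A24. A match is a description of letters and not a binding site.

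The stretches upstream of SLC25A20, SLC25A29 and SLC25A39 are shown because these members passed the test and met a rule on annotated exons. Counted from the end of the window farthest upstream, at least 100 bases come before the first annotated exon. They are 139, 147 and 203 bases of GRCh38.p14 from RefSeq, written 5′ to 3′ on the strand of the gene, with the GC box in capitals on either strand. SLC25A20 and SLC25A29 each hold 1 GC box in these stretches, and SLC25A39 holds 3.
SLC25A20, chr3:48898994-48899132, minus strand: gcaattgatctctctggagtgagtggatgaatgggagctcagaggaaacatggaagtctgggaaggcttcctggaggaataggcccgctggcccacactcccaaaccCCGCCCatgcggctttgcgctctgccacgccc
SLC25A29, chr14:100306548-100306694, minus strand: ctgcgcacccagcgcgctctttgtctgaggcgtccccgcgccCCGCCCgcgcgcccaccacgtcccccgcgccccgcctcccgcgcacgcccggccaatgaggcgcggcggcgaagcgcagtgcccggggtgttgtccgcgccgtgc
SLC25A39, chr17:44324871-44325073, minus strand: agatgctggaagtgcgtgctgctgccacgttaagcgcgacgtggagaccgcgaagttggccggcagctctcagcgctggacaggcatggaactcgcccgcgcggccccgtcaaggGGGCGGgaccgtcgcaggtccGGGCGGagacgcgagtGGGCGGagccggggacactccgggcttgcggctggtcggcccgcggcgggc

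Of 29 tested enzymes that act on what the carriers transport, 6 rose and 6 fell, or 41.4% beside 30.7% of all tested genes. All 12 are named here, the ones beyond GCLM, ACO1, MTHFD2 and MDH2 after their values were seen. Beside SLC25A20, the carnitine palmitoyltransferases on either side of it rose. CPT1A, which makes acylcarnitine at the outer membrane, went from 39.6 ± 1.53 to 46.3 ± 1.53 CPM (n = 4 each, SD; log2 change 0.23). CPT2, which takes the acyl group off again in the matrix, went from 37.2 ± 3.93 to 44.5 ± 2.01 CPM (n = 4 each, SD; log2 change 0.26), with overlapping libraries. Beside SLC25A39, the subunits of the enzyme that starts glutathione synthesis rose, GCLM with a log2 change of 0.35 and GCLC with 0.13. Among shuttle enzymes the malate dehydrogenase MDH2 and the glycerol phosphate dehydrogenase GPD2 rose (0.18 and 0.20), while the cytosolic aspartate aminotransferase GOT1 fell (-0.14). Beside the citrate carrier, the ATP citrate lyase ACLY (-0.15) and the cytosolic aconitase ACO1 (-0.37) fell. The matrix folate enzymes MTHFD2 (-0.25) and SHMT2 (-0.13) fell, as did ALAS1 (-0.16), which starts heme synthesis from glycine. GCLC, GOT1 and SHMT2 were each not called when any of several single libraries was left out (edgeR adjusted p up to 0.0925, 0.0573 and 0.0704).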

How the data were processed

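Libraries from polyadenylated RNA were sequenced as 150 bp paired-end reads, per the labels, and reads were filtered with fastp, per the series' design text. The genome build is hg38, per the submitters' processing notes. The aligner, the counter and the use of strand were not given in the sources used here. Raw counts per gene for 15852 rows and a table of FPKM values were deposited by the authors. All 110558 FPKM values above 0 match the deposited counts, divided by library total and by a fixed gene length, with a tolerance of 1e-06, so FPKM is not independent of the counts.

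The members, the gene lists and the tests were chosen with earlier results of these data known. Counts were normalized by TMM, filtered with filterByExpr (11841 genes left) and compared between all 4 control and 4 knockdown libraries with the robust quasi-likelihood F-test of edgeR 4.0.16, adjusted by Benjamini-Hochberg over all tested genes at 0.05. "Rose" and "fell" mean an adjusted p under that value. Printed CPM are scaled by TMM; the level of 1 CPM was applied to unscaled CPM, and both keep 36 members. Each SE is the absolute log2 change divided by the root of its F statistic. Members that passed the test get values per library; of the other lists, up to 4 genes with the smallest p are named unless stated otherwise. Alternatives were other scalings and filters, leaving out each library, a block for the replicate number, DESeq2 1.42.0, limma 3.58.1 on log2 FPKM and, added after seeing the data, GC-corrected offsets (loess span 0.5) with and without BOLA3-L knockdown replicate 1. Positions are from RefSeq on GRCh38.p14; exons, GC content and recurring sequence (75-base windows every 25 bases) are from GENCODE v29. The fit was tested on simulated data. Values of 1 kept member and of 1 gene of another list are not reported here. Other software was Python 3.11.15 with pandas 2.3.3, numpy 2.4.6, scipy 1.17.1 and matplotlib 3.10.9, and R 4.3.3.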

Additional observations from a re-analysis of the deposited data

Results flagged for a closer look

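Among 74 groups of 4 libraries (36 members and BOLA3, each in control and knockdown), 6 had a library far from the other 3; chance alone gives about 1 in 20 groups. In 5 of them the library was BOLA3-L knockdown replicate 1. It was the lowest for the dicarboxylate carrier SLC25A10, with 41.2 CPM against 49.2 to 49.7 CPM in the other knockdown libraries. It was also the lowest for the glutamate carrier SLC25A22, with 60.1 CPM against 70.7 to 72.5 CPM. It was the highest for the ornithine carrier SLC25A15, with 87.4 CPM against 78.8 to 80.1 CPM. It was the highest for the glycine carrier SLC25A38 as well, with 42.2 CPM against 39.0 to 39.5 CPM, and for the NAD carrier SLC25A51, with 10.7 CPM against 8.25 to 8.62 CPM. The remaining library was control replicate 1, the lowest for the basic amino acid carrier SLC25A29, with 25.7 CPM against 28.1 to 28.2 CPM. SLC25A15, SLC25A22 and SLC25A29 were called in each fit that left out 1 library, these libraries included.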

How the results depend on the processing

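Of the 7 members that passed the test, SLC25A15, SLC25A22, SLC25A24, SLC25A29 and SLC25A39 were called in all 19 alternatives; SLC25A20 and SLC25A35 were lost in some. SLC25A35 had an adjusted p of 0.0559, 0.0560 and 0.112 in the 3 limma fits on log2 FPKM. Of the 29 others, 10 were called in at least 1 alternative and 19 in none. Shares of all tested genes called in all, some or none of the alternatives were not computed. These counts therefore describe the members only. The count of members that rose ranged from 4 to 8 when 1 library was left out (8 without BOLA3-L knockdown replicate 1). It was 7 with GC-corrected offsets and 11 with these and without that library. The count that fell ranged from 2 to 4 when 1 library was left out. It was 5 with the offsets and without knockdown replicate 1. Over all genes the share called also moved, from 30.7% to 42.7% without knockdown replicate 1. The cause was not tested. The replicate block gave 4 rises and 3 falls (28.6% of all tested genes). Same-numbered libraries of the groups had correlations of -0.0444 to 0.0876, so the numbers do not pair them, and the block stands here only for completeness.

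Directions that turned belonged to members that were not called and lay near 0. With 1 library left out, log2 changes ran from -0.082 to 0.037 for SLC25A1, -0.022 to 0.063 for SLC25A14, -0.079 to 0.033 for SLC25A36, -0.10 to 0.049 for SLC25A42, -0.074 to 0.011 for SLC25A46, -0.021 to 0.015 for SLC25A5 and -0.076 to 0.066 for SLC25A51. SLC25A5 was at 0.0052 with upper quartile scaling, 0.00039 with no filter and 0.018 in each limma fit; SLC25A36 was at 0.0040, 0.0039 and 0.0040 in the limma fits and 0.0010 with GC-corrected offsets. With these offsets and without knockdown replicate 1, SLC25A14 was at -0.00050 and SLC25A51 at -0.087. Depth limits SLC25A20 and SLC25A53 most, with 105 counts or fewer per library.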

Other observations

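Over all tested genes 15.0% rose and 15.6% fell, or 30.7% in either direction, and the lists that follow are read beside these shares. Of the calcium uniporter genes, 3 of 6 tested rose and 0 fell with all 8 libraries (50% called), among them the uniporter subunit SMDT1 (log2 change 0.36) and the regulator MCUR1 (0.17). With 1 library left out, 0 to 2 of them rose: 0 without control replicate 1 and 1 without control replicate 2, control replicate 4 or knockdown replicate 4. Of 16 tested transporters outside the carrier family, the sideroflexin SFXN4 (0.17) and the inner membrane transporter ABCB10 (0.20), needed for heme synthesis, rose. The sideroflexin SFXN3 (-0.20) fell, so that 18.8% of this list was called. SFXN4 was not called without control replicate 1, 3 or 4 or without knockdown replicate 2 (edgeR adjusted p = 0.0504 to 0.0723), nor ABCB10 without control replicate 1 or knockdown replicate 2 (0.0532 and 0.0774). Of the 10 genes that bring carriers into the inner membrane, the intermembrane space chaperone TIMM9 (-0.21) fell and 0 rose (10% called); TIMM9 was not called without control replicate 1 or 2 or without knockdown replicate 3 or 4 (edgeR adjusted p = 0.0756 to 0.113). Of 8 tested regulators of mitochondrial biogenesis, the coactivators PPARGC1B (-0.25) and PPRC1 (-0.18) fell (25% called), also with any 1 library left out. Of the carriers with other symbols, MTCH1, MTCH2 and UCP3 were tested and not called by edgeR or DESeq2 with all 8 libraries and no GC correction, with log2 changes of 0.03, 0.07 and 0.51. MTCH2 was called with GC-corrected offsets, with all libraries (edgeR adjusted p = 0.0293) and without knockdown replicate 1 (0.00673), and UCP3 by limma on log2(FPKM + 1) with no minimum (adjusted p = 0.0238). UCP3 lay above every control in all knockdown libraries, at 0.623 ± 0.129 CPM in controls and 0.888 ± 0.0652 CPM in knockdown libraries (SD, n = 4 each; edgeR adjusted p = 0.140).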
